A study of Mus musculus with 2 samples.

Results

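Of the 32285 genes counted in lung endothelial cells (ECs) of mice 6 h after melanoma cell injection, 9 that encode inducible antagonists of the ERK pathway are described here. They are the MAP kinase phosphatases Dusp1, Dusp4, Dusp5 and Dusp6, the Sprouty genes Spry1, Spry2 and Spry4, and the Sprouty-related genes Spred1 and Spred2. They were listed by symbol, with earlier results of these data known, and each symbol matched 1 row in both count tables. The study asked how the pulmonary endothelium responds when circulating melanoma cells reach the lung. Its 2 single-cell libraries came from wild-type C57BL/6 mice, males of 8 to 10 weeks, given saline (control) or 400000 cells of the mouse skin melanoma line B16-F10 (B16-F10 6 h) through the tail vein, with lungs taken from both groups after 6 h. Per the labels 2 mice were pooled per treatment, and the study's methods give a different number. The sort kept cells with the endothelial antigen Pecam1 and without the leukocyte antigen Ptprc (CD45), plus green-dyed melanoma cells from the injected lungs. A bolus of cultured cells into a vein is a model of arrest in the lung and not of spontaneous spread. With 1 library per group there was no replicate check, so no test was run, every difference is between 2 libraries, and all intervals (95%) cover counting error only.

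The control library held 85794655 unique molecular identifiers (UMIs, each marking 1 captured RNA molecule) and the B16-F10 library 104978816. After filtering, 7830 and 7767 cells remained, and only 36 barcodes with at least 300 genes occurred in both. Clusters were assigned to vessel types from marker genes and are called general capillary (gCap-like, 4524 control and 4196 B16-F10 cells), aerocyte capillary (aCap-like, 1448 and 978), artery-like (68 and 43), vein-like (288 and 283) and lymphatic (LEC-like, 58 and 51). In each vessel class all 8 endothelial markers were detected in both libraries. A further 618 and 675 ECs met no single vessel class and are described by their leading genes. Levels are UMIs per 1000000 UMIs of the summed class (CPM), a gene counted as measured in a class with at least 50 UMIs over both libraries, and differences are log2 ratios of CPM, B16-F10 over control.

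ERK is the last kinase of the RAS-RAF-MEK-ERK cascade, through which receptors such as those for VEGF and FGF drive endothelial growth, survival and sprouting. Active ERK switches on its own antagonists. DUSP1, DUSP4 and DUSP5 are phosphatases of the nucleus, DUSP5 being specific for ERK while DUSP1 also acts on p38 and JNK, and DUSP6 is the ERK-specific phosphatase of the cytoplasm. Sprouty proteins act between receptor and RAF and were named after the branching airways of the fly, while SPRED proteins bring the RAS inhibitor neurofibromin to the membrane. RNA of several of these genes is short-lived and is commonly read as a trace of recent ERK signalling, although ERK itself was not measured here.

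The 250 bases before the transcription start were held for 7 of the 9 genes in the RefSeq promoter table (GRCm38.p6). They were searched on both strands for the ETS core CCGGAAG, the cAMP response element TGACGTCA, the AP-1 site TGANTCA, the STAT site TTCNNNGAA and the serum response element. Over all 32851 promoters of the same length, these were found in 6.91%, 1.55%, 6.75%, 7.02% and 1.47%. Among the 7 genes only Dusp1 and Dusp5 held a match. Dusp1 held a cAMP response element 143 to 136 bases before its start, and Dusp5 held adjacent serum response elements 82 to 73 and 72 to 63 bases before its start. Those promoters are shown with the matches in capitals, and that of Dusp6, which held none, is shown beside them. The windows are chr17:26508473-26508722 (minus strand) for Dusp1, chr19:53528895-53529144 (plus strand) for Dusp5 and chr10:99262981-99263230 (plus strand) for Dusp6, each 5′ to 3′. A match describes letters in the window, not binding of a factor.
Dusp1: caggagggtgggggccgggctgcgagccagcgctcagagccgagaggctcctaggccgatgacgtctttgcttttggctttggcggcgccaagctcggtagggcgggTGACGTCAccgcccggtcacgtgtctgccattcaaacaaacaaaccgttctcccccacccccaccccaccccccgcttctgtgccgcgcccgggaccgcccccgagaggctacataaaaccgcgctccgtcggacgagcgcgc
Dusp5: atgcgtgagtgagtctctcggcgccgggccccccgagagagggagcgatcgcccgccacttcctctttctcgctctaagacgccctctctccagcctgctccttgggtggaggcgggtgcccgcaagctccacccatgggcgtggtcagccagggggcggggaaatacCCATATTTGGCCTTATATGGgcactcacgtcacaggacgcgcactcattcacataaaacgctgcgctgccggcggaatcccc
Dusp6: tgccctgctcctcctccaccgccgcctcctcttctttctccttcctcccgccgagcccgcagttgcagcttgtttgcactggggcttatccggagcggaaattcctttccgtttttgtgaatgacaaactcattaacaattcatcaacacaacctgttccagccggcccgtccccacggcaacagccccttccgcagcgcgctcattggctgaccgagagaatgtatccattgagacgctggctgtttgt

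In gCap-like cells, the most numerous class, the 9 genes did not move together. Spry4, Spry1, Dusp6 and Dusp5 were higher in the B16-F10 library, Spry2 was lower, and Dusp1, Dusp4, Spred1 and Spred2 differed by less than 1.5-fold. All 9 genes were measured in this class, 4 of them at least 1.5-fold higher and 1 at least 1.5-fold lower, beside 7.66% and 9.43% of the 13111 measured genes. Dusp5 reached the minimum of UMIs only through the B16-F10 library. With at least 25 UMIs required in each library, 8 of the genes were left, 3 of them higher and 1 lower, beside 6.62% and 8.63% of 12740 genes. The median log2 ratio was 0.34 over the 9 genes and -0.04 over all measured genes, but it was 0.13 over those 8 and 0.22 over the 9 with every cell thinned to 2000 UMIs.

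**Figure D1:**
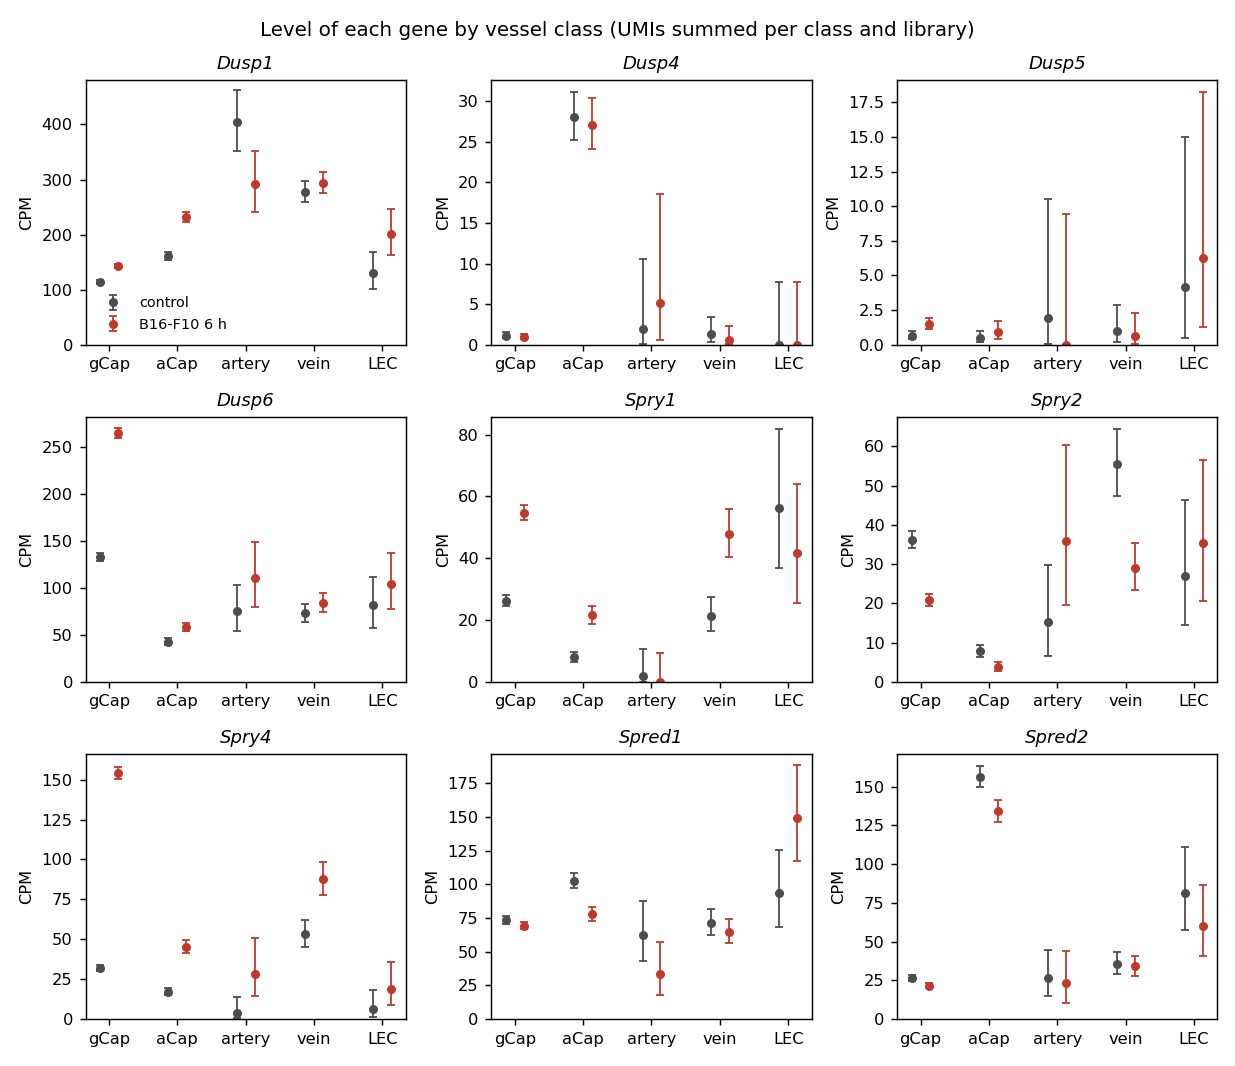
Level of the 9 genes in each vessel class, in CPM (vertical axis, from 0, scaled per gene) for the control library (grey) and the B16-F10 library (red). Points are UMIs summed per class and library, and bars are exact Poisson 95% intervals. Spry4 in gCap-like cells stands at 31.7 and 154 CPM, and Dusp4 is near 0 outside aCap-like cells.

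Among the nuclear phosphatases, Dusp1 (GRCm38 chromosome 17, 26505590 to 26562128, minus strand) was found in every vessel type. Its level was 113 CPM in control and 143 CPM in B16-F10 gCap-like cells, a log2 ratio of 0.34 (0.28 to 0.40). In aCap-like cells it was 161 and 231 CPM, a log2 ratio of 0.52 (0.44 to 0.61), and 0.79 with cells thinned to 2000 UMIs. The aCap-like class was made of a Ccdc184-led cluster (928 control and 909 B16-F10 cells) and a Tmeff2-led cluster (520 and 69 cells), so its makeup differed between the libraries. Within these clusters the log2 ratio of Dusp1 was 0.36 (0.28 to 0.45) and 0.13 (-0.47 to 0.68), both below that of the class. The larger vessels carried more. Control artery-like cells had 405 CPM and vein-like cells 277 CPM, and the order artery, vein, aCap, LEC, gCap held in control, although the intervals of aCap and LEC, and of LEC and gCap, met. In the B16-F10 library artery-like cells had 293 CPM and vein-like cells 294 CPM, so the gap between those classes in control was not seen there. The log2 ratio was -0.47 (-0.81 to -0.13) in artery-like cells (214 and 114 UMIs), 0.08 (-0.05 to 0.22) in vein-like cells and 0.62 (0.15 to 1.10) in LEC-like cells (63 and 97 UMIs). The annotated span of Dusp1 overlaps Ergic1 on the opposite strand, which had 1534 and 2240 UMIs in all ECs, and whether the counting used strand is not stated in the sources used here.

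Dusp4 (chromosome 8, 34807297 to 34819894, plus strand), another nuclear phosphatase, lay mostly in aerocytes. Its level in aCap-like cells was 28.1 CPM in control and 27.1 CPM in the B16-F10 library, a log2 ratio of -0.05 (-0.28 to 0.17). In gCap-like cells it was 1.10 and 0.956 CPM (37 and 35 UMIs). Of all endothelial UMIs of Dusp4, 88.9% in control and 86.8% in the B16-F10 library lay in aCap-like cells, and no UMI was found in LEC-like cells of either library (upper limits 7.67 and 7.66 CPM). The log2 ratio of gCap-like over aCap-like cells was -4.67 in control and -4.83 in the B16-F10 library, far larger in size than any difference of Dusp4 between the libraries.

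Dusp5 (chromosome 19, 53529109 to 53542431, plus strand), the nuclear ERK-specific phosphatase, was close to undetected in control ECs. Its gCap-like UMIs numbered 22 in control and 55 in the B16-F10 library, or 0.656 and 1.5 CPM, a log2 ratio of 1.20 (0.46 to 1.98). In aCap-like cells it had 6 and 10 UMIs, in vein-like cells 3 and 2, in LEC-like cells 2 and 3, and in artery-like cells 1 and 0, too few to compare. Summed over all ECs, however, its UMIs numbered 34 and 327, or 0.614 and 5.65 CPM, a log2 ratio of 3.20 (2.69 to 3.76). Most of the B16-F10 UMIs lay in a single cluster outside the vessel classes, described after the vessel types.

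Dusp6 (chromosome 10, 99263231 to 99267489, plus strand), the cytoplasmic ERK phosphatase, was higher in gCap-like cells than in the other vessel classes in both libraries. Its level there was 133 CPM (4450 UMIs) in control and 265 CPM (9690 UMIs) in the B16-F10 library, a log2 ratio of 1.00 (0.95 to 1.05). In aCap-like cells it was 42.7 and 58.1 CPM, a log2 ratio of 0.44 (0.28 to 0.61), which was 0.32 (0.15 to 0.50) in the Ccdc184-led cluster alone. In vein-like cells it was 72.9 and 83.9 CPM, a log2 ratio of 0.20 (-0.06 to 0.47). Artery-like cells had 75.7 and 110.4 CPM from 40 and 43 UMIs, and LEC-like cells 81.1 and 103.9 CPM from 39 and 50 UMIs. In control the intervals of LEC, artery and vein met each other in that order, with gCap above and aCap below them. The level in gCap-like cells was 3.11 times that in aCap-like cells in control and 4.56 times in the B16-F10 library. Among the gCap-like clusters the control level ran from 74.5 CPM (Gm20631-led) to 260 CPM (Lalba-led), the low end near the vein-like and artery-like levels.

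**Figure D2:**
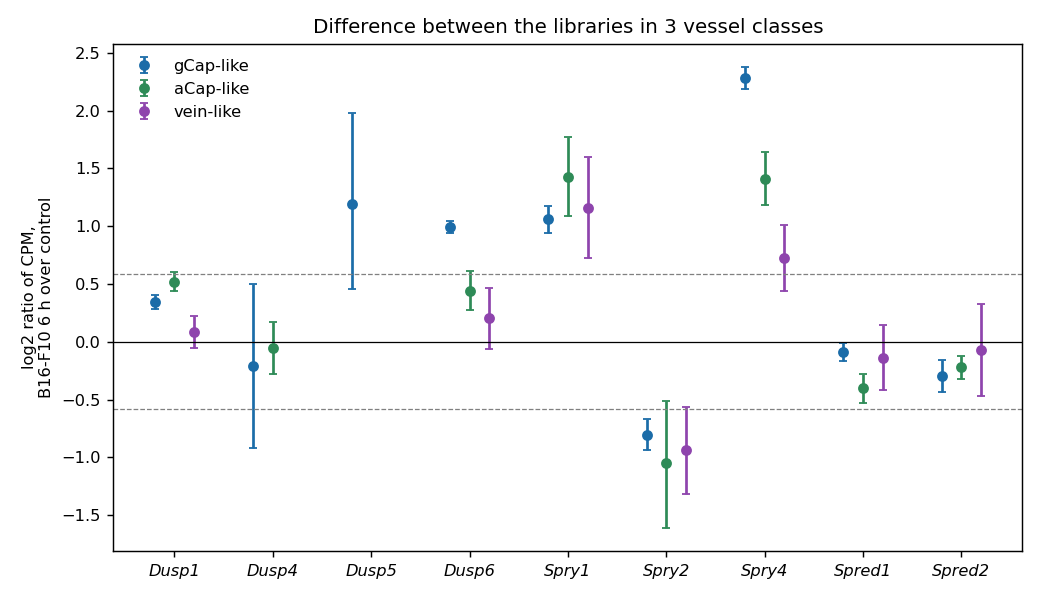
Log2 ratio of CPM, B16-F10 6 h over control (vertical axis), of each gene in gCap-like (blue), aCap-like (green) and vein-like cells (purple), with exact conditional binomial 95% intervals. Genes with fewer than 50 UMIs over both libraries in a class are not drawn, dashed lines mark 1.5-fold, and Spry1 and Spry4 lie above 0 and Spry2 below 0 in all 3 classes.

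The Sprouty genes parted ways. Spry4 (chromosome 18, 38586247 to 38601415, minus strand), which restrains receptor signalling to RAF, had the largest ratio of the 9 in gCap-like cells. It stood at 31.7 CPM (29.8 to 33.7, 1063 UMIs) in control and 154 CPM (150.2 to 158, 5643 UMIs) in the B16-F10 library, a log2 ratio of 2.28 (2.19 to 2.38). The log2 ratio was 1.41 (1.18 to 1.65) in aCap-like cells, from 17.0 to 45.2 CPM, and 0.72 (0.44 to 1.01) in vein-like cells, from 53.1 to 87.7 CPM. The intervals of these 3 ratios did not meet, but with cells thinned to 2000 UMIs the ratio in vein-like cells was 1.24, and whether the classes differ was not tested. In the Ccdc184-led aCap-like cluster alone the log2 ratio was 1.21 (0.97 to 1.46). In control the vein-like level was the highest of the 5 classes and the gCap-like level the second, and in the B16-F10 library their order was exchanged. Artery-like cells had 2 and 11 UMIs and LEC-like cells 3 and 9. Spry4 is among the genes by which the study marked its reactive capillary cluster (rCap), chosen in part on these libraries, so its direction in gCap-like cells is not independent evidence.

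Spry1 (chromosome 3, 37639947 to 37644598, plus strand), a Sprouty gene needed for normal kidney branching, was also higher. Its level in gCap-like cells was 26.2 CPM in control and 54.6 CPM in the B16-F10 library, a log2 ratio of 1.06 (0.94 to 1.17). The log2 ratio was 1.43 (1.09 to 1.77) in aCap-like cells, from 8.01 to 21.5 CPM (1.25, 0.90 to 1.62, in the Ccdc184-led cluster alone), and 1.16 (0.73 to 1.6) in vein-like cells, from 21.4 to 47.8 CPM. Of the 5 vessel classes LEC-like cells had the highest control level, 56.1 CPM, with 41.6 CPM in the B16-F10 library (27 and 20 UMIs). Artery-like cells held 1 and 0 UMIs.

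Spry2 (chromosome 14, 105891947 to 105896819, minus strand), the Sprouty gene best known from lung branching and FGF signalling, went the other way. Its level in gCap-like cells was 36.2 CPM (34.2 to 38.3) in control and 20.7 CPM (19.3 to 22.3) in the B16-F10 library, a log2 ratio of -0.80 (-0.94 to -0.67). The log2 ratio was -1.05 (-1.61 to -0.52) in aCap-like cells, from 7.78 to 3.75 CPM, and -0.94 (-1.32 to -0.56) in vein-like cells, from 55.4 to 28.9 CPM. With cells thinned to 2000 UMIs the ratio in vein-like cells was -1.46. In control gCap-like cells Spry2 had more UMIs than Spry4 (1215 and 1063). In the B16-F10 library it had 759 and Spry4 5643. Artery-like cells (8 and 14 UMIs) and LEC-like cells (13 and 17 UMIs) did not carry enough UMIs to compare.

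The SPRED genes differed little between the libraries in capillaries and veins. Spred1 (chromosome 2, 117121374 to 117182279, plus strand) stood at 73.7 and 69.3 CPM in gCap-like cells, a log2 ratio of -0.09 (-0.17 to -0.01), and at 103 and 77.8 CPM in aCap-like cells, a log2 ratio of -0.40 (-0.53 to -0.28). Within the Ccdc184-led and Tmeff2-led aCap-like clusters the ratio of Spred1 was -0.31 (-0.45 to -0.18) and -0.03 (-0.52 to 0.43). In LEC-like cells it was 93.6 and 149.6 CPM (45 and 72 UMIs), a log2 ratio of 0.68 (0.12 to 1.25). Across classes the control levels lay between 62.5 CPM in artery-like and 103 CPM in aCap-like cells, each interval meeting that of the next class in the order. Spred2 (chromosome 11, 19924375 to 20024026, plus strand) was highest, among the vessel classes, in aCap-like cells, which held 60.6% of its endothelial UMIs in control and 57.04% in the B16-F10 library. It stood at 157 CPM in control and 134 CPM in B16-F10 aCap-like cells, a log2 ratio of -0.22 (-0.32 to -0.12) and of -0.45 with cells thinned to 2000 UMIs, against 26.4 and 21.5 CPM in gCap-like cells, a log2 ratio of -0.30 (-0.44 to -0.16). LEC-like cells came next with 81.1 and 60.3 CPM, and vein-like, artery-like and gCap-like cells, at 35.6, 26.5 and 26.4 CPM in control, followed with intervals that met.

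Outside gCap-like cells the counts were smaller. In aCap-like cells 8 of the 9 genes were measured, of which 2 (Spry1 and Spry4) were at least 1.5-fold higher and 1 (Spry2) at least 1.5-fold lower, where 6.49% and 8.11% of 11106 measured genes were. In vein-like cells 7 were measured, with Spry1 and Spry4 again at least 1.5-fold higher and Spry2 lower, where 5.35% and 5.79% of 9292 genes were. In LEC-like cells 4 were measured, of which Dusp1 and Spred1 were at least 1.5-fold higher and 0 lower, where 8.4% and 8.42% of 3977 genes were. In artery-like cells 2 were measured, Dusp1 and Dusp6, and neither passed 1.5-fold, where 9.72% of 3682 genes were higher and 7.74% lower. The counts in all 4 of these classes changed with the settings of the processing. In aCap-like cells thinned to 2000 UMIs, 4 genes were higher and 0 lower. Spry2, found in 26 control and 7 B16-F10 cells at that depth, fell below the minimum of UMIs and was not counted. Its log2 ratio there was -1.39. The shares of all genes above are at full depth.

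Within the gCap-like class the differences were also read cluster by cluster. The class was made of 6 clusters, found without the 9 genes and without the other ERK, rCap and interferon lists. Genes of those lists that are also cell type markers were kept. The clusters are parts of the same 2 libraries and not replicates, so agreement between them is no replicate check. Some were uneven between the libraries, such as the Gclm-led cluster (689 control and 133 B16-F10 cells). Spry4 was at least 1.5-fold higher in all 6 (log2 ratios 1.26 to 2.24), Spry1 in 5 of 6 (0.51 to 1.55) and Dusp6 in 4 of 6 (0.41 to 1.41). The interval of Spry1 in the Lalba-led cluster included 0 (-0.07 to 1.15). Spry2 had a ratio below 0 in all 6 (-1.43 to -0.34), by at least 1.5-fold in 4, with an interval that included 0 in the Gclm-led cluster (-0.98 to 0.24). Dusp1, below 1.5-fold in the class, was above 0 in all 6 (0.07 to 1.00) and at least 1.5-fold higher in 2. Its intervals included 0 in the Ntrk2-led (-0.04 to 0.21), Ankrd63-led (-0.02 to 0.24) and Lalba-led (-0.30 to 0.47) clusters. Spred2 was below 0 in 5 and above it in 1 (-0.74 to 0.22), and at least 1.5-fold lower in 2. Its intervals included 0 in the Ntrk2-led, Gclm-led and Lalba-led clusters. The Lalba-led cluster, also led by the study's rCap genes Scarb1 and Disp2, held 74 control and 1011 B16-F10 cells and the highest B16-F10 levels of Spry4 (291 CPM) and Dusp6 (345 CPM) in the class. It held 48.1% of the B16-F10 gCap-like UMIs of Spry4 and 33.2% of those of Dusp6, against 25.5% of all UMIs of the class. Without that cluster the log2 ratio in gCap-like cells was 1.83 (1.73 to 1.94) for Spry4, 0.86 (0.81 to 0.92) for Dusp6, 0.99 (0.87 to 1.12) for Spry1 and -0.64 (-0.78 to -0.50) for Spry2. Dusp5 without it had 21 and 31 UMIs, a log2 ratio of 0.84 (-0.01 to 1.71), so its difference in gCap-like cells was no longer beyond counting error.

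The strongest Dusp5 and Spry4 levels lay in an endothelial cluster that belonged to no vessel class. It was led by Csf2 (a myeloid growth factor), Sox9 and Fosl1, carried all 8 endothelial markers, and held 7 control and 299 B16-F10 cells, so it was nearly a cluster of 1 library and cannot be told apart from it. In its B16-F10 cells Dusp5 stood at 86.0 CPM (75.8 to 97.3, 256 UMIs) and Spry4 at 429 CPM (405 to 453, 1275 UMIs). That is 78.3% of the Dusp5 UMIs and 15.7% of the Spry4 UMIs of all B16-F10 ECs. Dusp6 and Spry1 did not go with them: they stood at 44.4 CPM (37.1 to 52.6) and 3.36 CPM (1.61 to 6.18), below the 265 and 54.6 CPM of gCap-like cells in the same library. Dusp1 was at 196 CPM, Spry2 at 22.9, Spred1 at 98.1 and Spred2 at 22.2 CPM. In the 7 control cells of the cluster Spry4 was already at 249 CPM (145 to 399, 17 UMIs), while Dusp5 had 0 UMIs (upper limit 54.1 CPM). These levels describe cells grouped by their expression, and a comparison of such a cluster with other cells is no test.

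**Figure D3:**
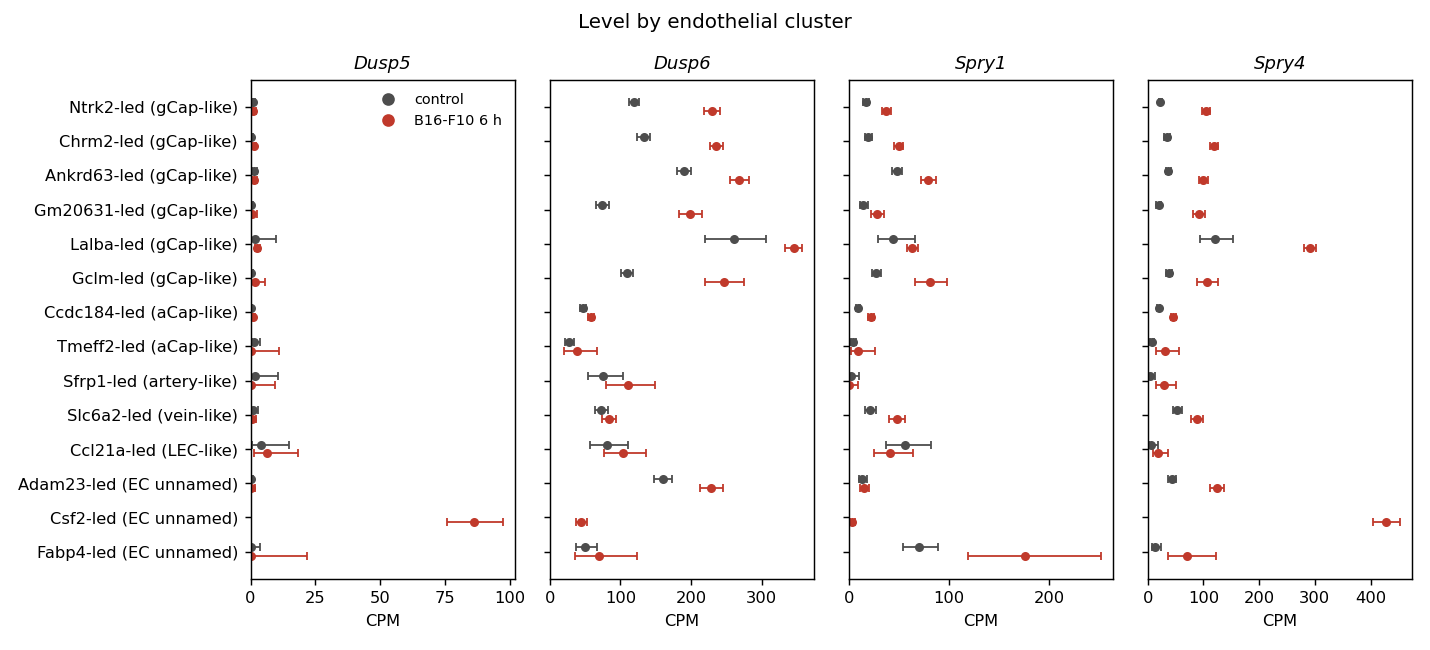
Level (CPM, horizontal axis from 0) of Dusp5, Dusp6, Spry1 and Spry4 in each endothelial cluster, named by its leading gene and class, in the control (grey) and B16-F10 library (red), with exact Poisson 95% intervals. Libraries with under 20 cells in a cluster are not drawn. Dusp5 is at 86.0 CPM in the Csf2-led cluster and at most 6.23 CPM in the others drawn, and in the Csf2-led cluster Spry4 is at 429 CPM and Spry1 at 3.36 CPM.

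The other unnamed clusters differed again in which of the genes they carried. The Fabp4-led cluster (172 control and 29 B16-F10 cells) had a Spry1 level of 69.9 CPM in control and 176 CPM in the B16-F10 library, and a Spred2 level of 199 and 229 CPM, the highest of each gene among the endothelial clusters in both libraries. The Adam23-led cluster (439 and 347 cells), which carried 5 artery and 3 gCap markers, had Dusp6 at 160 and 228 CPM and Spry4 at 43.3 and 124 CPM. Its Spry1 level was 13.5 and 14.8 CPM, nearly the same in both libraries.

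The study's rCap genes offered another axis within gCap-like cells. Cells thinned to 2000 UMIs were ranked within each library by their UMIs of 43 rCap genes (the study's list without Spry4), and the 25% at each end were compared. In the B16-F10 library Spry4 was at 72.0 CPM in the cells with the lowest rCap score and 274 CPM in those with the highest, a log2 ratio of 1.93 (1.67 to 2.20). Dusp6 was at 205 and 309 CPM (0.59, 0.41 to 0.77) and Spry1 at 39.4 and 71.1 CPM (0.85, 0.45 to 1.26). Spry2 was lower at the high end, with 28.3 and 14.9 CPM (-0.93, -1.61 to -0.28). Dusp1, Spred1 and Spred2 had intervals that included 0.

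In control the same ranking separated Spry4, Dusp6 and Spry2 less, and Spry1 about as much. Spry4 was at 27.4 and 37.2 CPM (0.44, -0.05 to 0.95), Dusp6 at 114 and 136 CPM (0.25, 0.004 to 0.49) and Spry1 at 19.7 and 36.8 CPM (0.90, 0.35 to 1.46), while Spry2 was at 30.5 and 33.2 CPM (0.12, -0.37 to 0.62). With cells thinned to 4000 UMIs the control log2 ratio of Spry4 was 1.31 (0.92 to 1.72), that of Dusp6 0.53 (0.35 to 0.71) and that of Spry1 0.30 (-0.12 to 0.72), so the control values depended on depth. The B16-F10 values at that depth were 2.16 for Spry4, 0.73 for Dusp6, 0.66 for Spry1 and -0.85 for Spry2. Cells with the lowest scores in the B16-F10 library still had more Spry4 (72.0 and 27.4 CPM), Dusp6 (205 and 114 CPM) and Spry1 (39.4 and 19.7 CPM) than the lowest-scoring control cells, although their median score was also higher (22 and 13 UMIs). The study chose the rCap list in part on these libraries, so these values are a description.

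**Figure D4:**
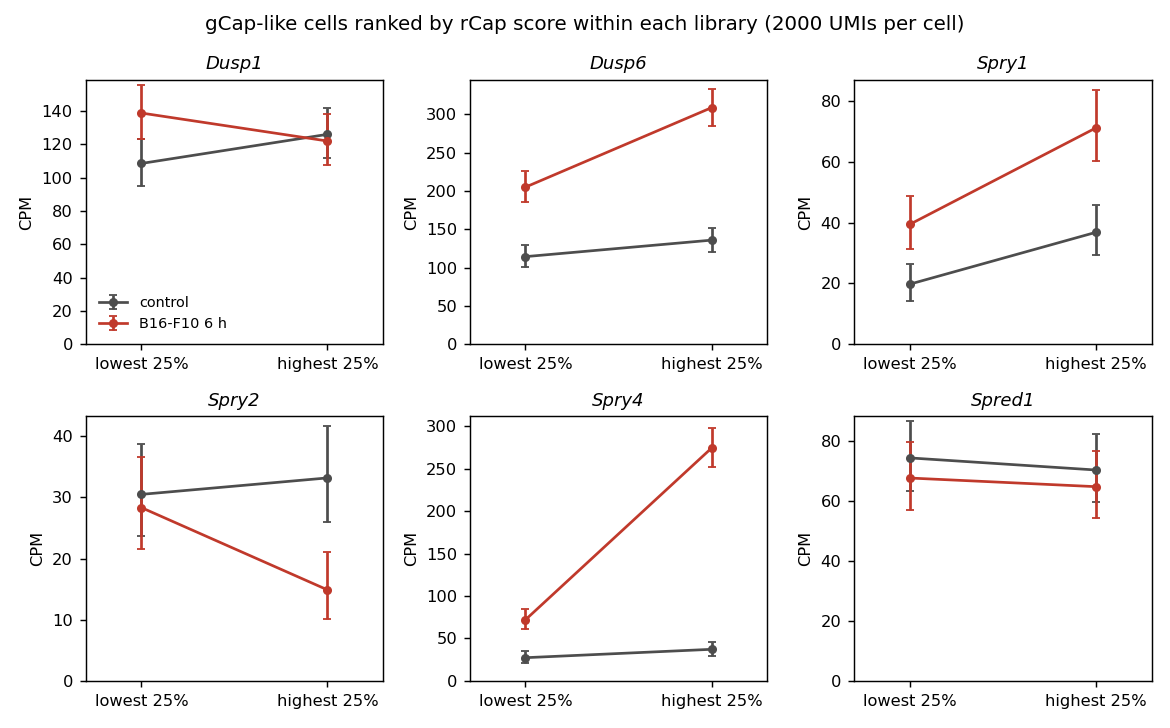
Level (CPM, vertical axis from 0) of 6 of the genes in the 25% of gCap-like cells with the lowest and the 25% with the highest rCap score, within the control (grey) and B16-F10 library (red), at 2000 UMIs per cell, with exact Poisson 95% intervals. Spry4 in the B16-F10 library stands at 72.0 CPM at the low end and 274 CPM at the high end, and Spry2 at 28.3 and 14.9 CPM.

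The genes that were higher were found in a larger share of cells. With gCap-like cells thinned to 2000 UMIs (62 control and 30 B16-F10 cells were shallower and left out), Spry4 was found in 244 of 4462 control cells, which is 5.47% (4.82 to 6.18). In the B16-F10 library it was found in 957 of 4166 cells, which is 23.0% (21.7 to 24.3). Cells with a Spry4 UMI held 1.07 UMIs of it in control and 1.27 in the B16-F10 library. Dusp6 was found in 19.3% (18.1 to 20.5) and 35.9% (34.5 to 37.4) of cells, with 1.3 and 1.4 UMIs per such cell. Spry1 was found in 4.93% and 9.79% of cells, and Spry2 in 6.54% (5.84 to 7.31) and 4.32% (3.72 to 4.98). Free RNA alone would give a Spry4 UMI in 0.102% of control and 0.593% of B16-F10 cells and a Dusp6 UMI in 0.443% and 1.10%. Dusp4 (8 and 5 cells) and Dusp5 (7 and 15 cells) were too rare in this class for a comparison of shares. Without thinning the shares of Spry4 were 16.6% and 55.3%, with median depths of 7249 and 8423 UMIs.

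**Figure D5:**
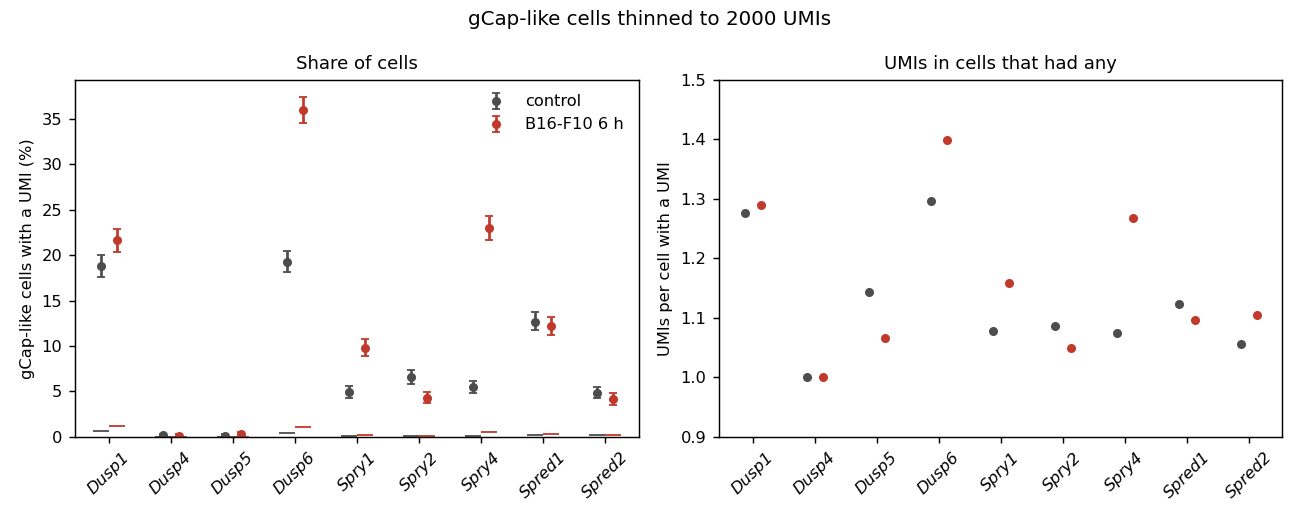
Left, percentage of gCap-like cells with at least 1 UMI of each gene after thinning to 2000 UMIs (vertical axis from 0), in the control (grey) and B16-F10 library (red), with exact Clopper-Pearson 95% intervals and, as short bars, the share that free RNA alone would give. Right, UMIs per cell that had any, on an axis that does not start at 0. Spry4 goes from 5.47% to 23.0% of cells and Dusp6 from 19.3% to 35.9%.

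Dusp6 was found more often in control cells that also held Spry4. In control gCap-like cells at 2000 UMIs, 31.1% (76 of 244) of cells with a Spry4 UMI also had a Dusp6 UMI, against 18.6% of those without, and the intervals did not meet (upper limit 19.8% in the latter). In the B16-F10 library the shares were 39.3% (376 of 957, 36.2 to 42.5) and 34.9% (33.3 to 36.6), with intervals that met. Dusp1 was found at nearly the same share in cells with and without a Spry4 UMI, 19.3% and 18.8% in control and 22.8% and 21.3% in the B16-F10 library. Such shares were computed for every pair of the genes, and only these pairs with Spry4 are shown. The cells were pooled over the gCap-like clusters. In control Dusp6 and Spry4 were lowest in the Gm20631-led cluster (74.5 and 19.3 CPM) and highest in the Lalba-led cluster (260 and 121 CPM). The clusters in between were ordered differently for each gene. The part of cluster makeup in the shares was not tested. These shares come from sparse counts and are given as a description.

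The other genes of the pathway were listed by role, and their counts in gCap-like cells stand beside 7.66% of all measured genes at least 1.5-fold higher and 9.43% lower. Of 20 other genes known to be induced through ERK, 18 were measured in gCap-like cells, of which 14 were at least 1.5-fold higher and 0 lower, with a median log2 ratio of 1.33. Among the 14 are Fosl1, Egr3 and Myc, which reached the minimum of UMIs only through the B16-F10 library (Fosl1 and Egr3 are named for this, with their values known), and without them 11 of 15 were higher, with a median of 1.27. The immediate-early transcription factor Egr1 went from 10.6 to 143 CPM (3.75), Fos from 59.3 to 290 CPM (2.29) and Myc, also on the rCap list, from 18 to 566 UMIs (4.85). The lowest ratios were those of the FGF antagonist Il17rd (-0.48) and the ETS factor Etv1 (-0.16). Dusp6 and Spry1 thus had ratios below the median of this list and Spry4 one above it. Of 7 other MAP kinase phosphatases measured, only Dusp18 was at least 1.5-fold higher (0.82, 39 and 75 UMIs), followed by Dusp8 (0.54), a phosphatase of JNK and p38, while Dusp7 (-0.44), the cytoplasmic relative of Dusp6, and Dusp10 (-0.23) had the lowest ratios. Of the remaining family genes, Spred3 was measured (0.54, 102 and 162 UMIs).

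Upstream of the 9 genes, the cascade was near the background of all genes. Of its 15 genes from RAS to ERK, 1 was at least 1.5-fold higher, the MEK-activating kinase Map3k8 (0.68), and 0 were lower, beside 7.66% and 9.43% of all genes, with Rap1b at 0.53, Mapk3 (ERK1) at 0.21, Braf at -0.37 and the scaffold Ksr1 at -0.48. Of 16 adaptors and GTPase regulators, 0 were higher and 1, the docking protein Gab1 (-0.69), was lower, with Sos1 at -0.45, Shc1 at 0.19 and Ptpn11 at 0.24. Of 13 receptors measured, 1 was higher, the mural receptor Pdgfrb (1.10, 82 and 192 UMIs), and 2 were lower, Fgfr3 (-1.08) and Igf1r (-0.65), while Kdr (0.01), the main VEGF receptor, Flt1 (0.09) and Kit (0.17) were close to 0. Pdgfrb is also on the list of 8 mural markers, whose summed level was 23.9 and 39.6 CPM in these cells. The part of mural RNA in its ratio was not tested. Kit is also a gCap marker by which the class was assigned. Of 11 ligands measured, 3 were higher, Fgf1 (1.20), Tgfa (1.10, 15 and 35 UMIs) and Hbegf (0.61), and 3 were lower, Fgf10 (-2.73, 128 and 21 UMIs), the TIE2 ligand Angpt2 (-1.09) and Vegfd (-0.72). Tgfa reached the minimum of UMIs only through the B16-F10 library and Fgf10 only through the control library, and without them 2 of 9 ligands were higher and 2 lower. Hbegf and Vegfd are named only because they complete these counts, with their values known. Vegfa was at 293 and 333 CPM (0.19). In aCap-like cells the list of ERK-induced genes had 8 of 15 higher and 0 lower, and the cascade 0 of 15 higher and 1, Ksr1 (-0.63), lower, beside 6.49% higher and 8.11% lower of all genes measured there.

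Other lists, some of which share genes with the ERK-induced list, also differed between the libraries, against the same 7.66% higher and 9.43% lower of all measured genes. Of 21 genes measured from a list induced by tissue dissociation, which includes Fos and Egr1, 13 were at least 1.5-fold higher and 2 lower in gCap-like cells, the latter being the heat-shock genes Hspa1a (-0.76) and Hspa1b (-1.41), and the highest ratios were those of Egr1 and of the JAK-STAT feedback gene Socs3 (2.92). Of 10 glucocorticoid response genes, 5 were higher, the metallothionein Mt2 (7 and 485 UMIs, 5.99), Cebpd (2.16) and, named to complete the count, Fkbp5 (1.44), Ddit4 (0.91) and Errfi1 (0.83), and 0 lower, with Tsc22d3 at -0.54 and Sgk1 at -0.50. Mt2 reached the minimum of UMIs only through the B16-F10 library, and so did Lalba and Myc of the next list. Of the 44 rCap genes, 42 were higher and 0 lower (median 1.61), from Lalba (5.34) and Myc to Top1 (0.49) and Col4a1 (0.44), a list that the study chose in part on these libraries. Lungs of both groups were digested the same way per the labels, and the part of dissociation in the ratios of the 9 genes was not tested.

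Other cell types left traces in both libraries. In gCap-like cells the summed level of 8 melanoma markers was 26.3 CPM in control and 55.4 CPM in the B16-F10 library (7 of 8 higher), that of 8 macrophage or monocyte markers 19.97 and 33.4 CPM (5 of 8 higher), that of 8 mural markers 23.9 and 39.6 CPM (7 of 8 higher) and that of 5 erythroid markers 1240 and 1473 CPM (0 of 5 higher). In vein-like cells the erythroid sum was 516 and 3520 CPM. No melanoma marker was at 0 in B16-F10 gCap-like cells, and 3 were at 0 in control and count among the 7 that were higher. The melanoma cells themselves carried little of the genes that were higher in ECs: the 78 cells of a Dct-led cluster, found at a finer resolution in the B16-F10 library only, had 0 UMIs of Spry4, Spry1 and Dusp5 (upper limit 4.45 CPM each) and 6 of Dusp6 (7.25 CPM), beside 12 of Dusp4 and 12 of Spred1 (14.5 CPM each). Free RNA made up an estimated 2.38% of UMIs in control and 3.12% in B16-F10 ECs. At those shares it would supply 0.508 and 2.97 CPM of Spry4, 2.22 and 5.53 CPM of Dusp6 and 3.17 and 6.15 CPM of Dusp1. The mitochondrial share of UMIs in gCap-like cells was 2.01% and 2.36% (medians), and its part in the results was not tested.

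Across the 10 points formed by 5 vessel classes and 2 libraries, the genes whose log2 level followed each of the 9 most closely were found among 6957 genes with enough UMIs, and 5 of the 9 had at least 5 UMIs at every point. Spred2 was followed most closely by B3gnt2 (Pearson r 0.99), Grina (0.97) and the aerocyte marker Ednrb (0.96). Dusp6 was followed by Fam168b (0.97), Ccdc9b and Cnn2 (both 0.87), Dusp1 by Ap1b1, Nfkbiz (both 0.88) and Fos (0.87), Spry2 by Arhgef1 (0.95) and Spred1 by Fam222b (0.98). Among those 5 the highest value was that of Spred1 with Spred2 (0.59) and the lowest that of Dusp6 with Spred2 (-0.74). The points share libraries and free RNA and are not independent, so these values describe the pattern only.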

How the data were processed

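The authors deposited raw UMI counts per gene and barcode for all barcodes, with no filter or normalization, made with Cell Ranger 7.2.0 per the file headers. The submitters' processing notes also name Seurat 4.4.0 and mm10 (the same build as GRCm38). The study's methods give another Cell Ranger version, the labels name a v2 kit although 1597090 and 1779952 barcodes are more than that kit holds, and whether reads in introns were counted, which would favour long genes such as Spred1 and Spred2, is not given in the sources used here.

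The study's limits were applied, 1000 to 5000 detected genes and less than 20% mitochondrial UMIs per cell. Doublets were scored with Scrublet in scanpy 1.11.5 and the highest scores removed up to 0.8% per 1000 cells (564 control and 554 B16-F10 cells). Counts were scaled to 10000 per cell and logged. Of 3000 variable genes, 2931 remained after the 9 genes and the ERK, rCap and interferon lists were left out. Genes of those lists that are also cell type markers, such as Kit and Pdgfrb, were not left out. Each gene was scaled within its library, and cells were clustered (30 components, 20 neighbours, leidenalg 0.10.2, resolution 0.8) into 22 clusters. A vessel class needed at least 3 markers and 50% of its list, and ECs needed 6 of 8 endothelial markers. A vessel marker counted where its CPM in the cluster was 1.5-fold the mean CPM of the other clusters and 10% of cells held it. Each other cluster had equal weight in that mean. No class was given where the leading genes of the cluster held more markers of another cell type. A class was withheld where at least 3 markers of another capillary class counted, a rule set after the clusters but not the values of the 9 genes had been seen. Clusters with endothelial and other markers were called mixed and left out (801 and 1344 cells).

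UMIs were summed per class and library, with exact Poisson intervals for CPM, exact conditional binomial intervals for ratios (no pseudocount) and Clopper-Pearson intervals for shares, none of which cover differences between mice. No fold is given where a gene had 0 UMIs in a library. Such a gene was still counted as higher or lower where the other library held UMIs of it. Free RNA was estimated from barcodes with 1 to 100 UMIs through 10 genes of alveolar, airway and red blood cells. The ratio and its interval were tested on simulated counts. The genes, lists and alternatives were chosen with earlier results of these data known. Named beside the 9 genes are, of each list, the 2 highest and 2 lowest ratios in gCap-like cells, plus Fos, Egr1, Myc, Kdr, Flt1, Vegfa and Mapk3 (a further gene of the rule is not reported here), and the 3 genes most like each of the 9. Gene positions are from GENCODE M21, where 32158 of 32285 IDs were found. Figures were drawn with matplotlib 3.10.9.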

Additional observations from a re-analysis of the deposited data

Results flagged for a closer look

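Dusp1 differed in opposite directions between classes, with a log2 ratio of B16-F10 over control of 0.62 in LEC-like cells and -0.47 in artery-like cells. Spred1 did likewise, at 0.68 in LEC-like and -0.40 in aCap-like cells. In each pair the counting intervals lie on opposite sides of 0, with 1 library per group, and whether the classes differ was not tested.

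Barcodes with 1 to 100 UMIs, which hold free RNA and were used in no comparison, also carried more of some of the genes in the B16-F10 library. The log2 ratio there was 2.05 (0.80 to 3.44) for Dusp5, from 8 and 20 UMIs, 0.93 (0.76 to 1.10) for Dusp6 and 2.16 (1.85 to 2.47) for Spry4, from 21.3 and 95.3 CPM. For Spry4 and Dusp6 these lie near the ratios of gCap-like cells, 2.28 and 1.00.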

How the results depend on the processing

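Over 58 results and 485 alternative values, 429 stayed within the spread or the count limits set for them, 56 moved and 0 were labelled reversed. Some log2 ratios whose reported interval included 0 still changed sign between settings, which that label did not count. Among them are Dusp4 in aCap-like cells (-0.19 to 0.28) and, in vein-like cells, Spred2 (-0.17 to 0.35), Spred1 (-0.17 to 0.14) and Dusp1 (-0.02 to 0.16). In gCap-like cells the log2 ratio of Spry4 ranged from 2.23 to 2.41, of Dusp6 from 0.96 to 1.21, of Spry1 from 0.99 to 1.23 and of Spry2 from -0.86 to -0.65 over 11 settings each, the reported one included. Of the values that moved, 22 were counts or medians, which follow, 22 were log2 ratios of single genes and 12 were shares of cells, which move with the depth they are read at. The cause was not tested except where the setting itself removes cells or genes. With a limit of 2-fold in place of 1.5-fold, the count of lower genes was 0 in gCap-like and 0 in vein-like cells, and that of higher genes 1 in vein-like and 0 in LEC-like cells. With cells thinned to 2000 UMIs, the higher count was 4 in aCap-like, 1 in vein-like and 0 in LEC-like cells, the lower count in aCap-like cells was 0, and the median of the 9 genes in gCap-like cells was 0.22. At that depth Spry2 in aCap-like, Spry1 in vein-like and every gene in LEC-like cells fell below the minimum of UMIs and were not counted. The thinned log2 ratio was -1.39 for Spry2 in aCap-like and 1.29 for Spry1 in vein-like cells. Without an upper limit of genes, that median was 0.41 and the higher count was 1 in artery-like and 0 in LEC-like cells. In artery-like cells, at 0 in the report, the higher count was 1 with doublets kept, 2 with at least 500 genes, 2 under 10% mitochondrial UMIs, 2 at resolution 1.6, 2 with all lists kept in clustering, 3 without a minimum of UMIs, and 1 with the capillary cluster kept as artery-like (chosen after seeing the data). Without a minimum of UMIs the lower count was 3 in artery-like and 3 in vein-like cells. In artery-like cells that count includes Dusp5 and Spry1, each with 1 control and 0 B16-F10 UMIs. With at least 25 UMIs in each library (chosen after seeing the data) the median in gCap-like cells was 0.13. Of the log2 ratios that moved, 10 did so with cells thinned to 2000 UMIs, among them Spry4 (0.72 to 1.24), Spry2 (-0.94 to -1.46) and Spred2 (-0.07 to 0.35) in vein-like cells and Dusp1 (0.52 to 0.79), Dusp4 (-0.05 to 0.28) and Spred2 (-0.22 to -0.45) in aCap-like cells. The other 12 include Dusp1 in aCap-like cells, 0.36 without the Tmeff2-led cluster (chosen after seeing the data), and Dusp1 in artery-like cells, -0.47 to -0.10 with that capillary cluster added. Depth limits Dusp5 and all values in artery-like and LEC-like cells, with 43 to 68 cells summed per library. No paired analysis was possible because no result comes from a test, with a single library in either group.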
